A study of Homo sapiens with 22 samples.

Results

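Triglyceride and fatty acid handling was followed through 10 genes that were picked by name: DGAT1, DGAT2, LPIN1, LPIN2, ANGPTL4, PLIN2, CPT1A, PNPLA2, ACSL1 and ACSL3. They were chosen with earlier results of these data known. Their counts and medians, set beside all genes below, are therefore a description and cannot show that the set responds more than other genes. All 10 were found among the 20668 gene symbols in the RNA-seq data, and all 10 passed the filter on low values. The cells were MDA-MB-231, an established human TNBC (triple-negative breast cancer) line, kept for 3 days without phenol red and in 5% FBS that charcoal had depleted of steroid hormones. They received vehicle, Dex (dexamethasone, a synthetic glucocorticoid) at 100 nM, or CpdA (Compound A, a non-steroidal ligand of the glucocorticoid receptor, GR) at 10 μM. Each ligand was given for 2 h or 4 h, so that there were 5 groups of 2 replicates and 10 samples in all. The labels gave no time point for the 2 vehicle samples, which served as the reference for all 4 treatments. The headers of their files name 1 for 2 h and the other for 4 h, so that a difference between times in vehicle and a difference between replicates cannot be told apart, and the vehicle SD may hold both. The GR, AP1 and p65 binding experiments of the series were not analysed here.

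Triglyceride is built on glycerol by stepwise addition of fatty acids. LPIN1 and LPIN2 (lipins) remove phosphate from phosphatidic acid to give diacylglycerol, and DGAT1 and DGAT2 add the last fatty acid. ACSL1 and ACSL3 join long-chain fatty acids to coenzyme A, PLIN2 coats the lipid droplets that store triglyceride, and PNPLA2 (adipose triglyceride lipase) starts its breakdown. CPT1A admits fatty acids to mitochondria for oxidation, and ANGPTL4 is a secreted inhibitor of lipoprotein lipase. Glucocorticoids are known to change fat storage and release in adipose tissue and liver.

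Values were RPKM, reads scaled to transcript length and to the mapped reads of each sample, so that levels of different genes can be set side by side. The step that 1 read is worth implied 51300000 to 62100000 reads per sample, with both vehicle samples lowest, at 51300000 and 51900000. DGAT2 rested on 67 to 338 implied reads per sample and ANGPTL4 on 185 to 4247, while every other member had at least 1665. The 7 mesenchymal markers in the files, VIM among them at 1267 to 1464 RPKM, summed to 2449 to 2594 RPKM per sample. SNAI2 (42.2 and 35.9 RPKM in vehicle, 89.1 and 88.1 RPKM at Dex 4 h) was higher in all Dex samples than in vehicle. So was CAV1 (309 and 301 RPKM, then 389 and 366 RPKM). CD44 (159 and 182 RPKM, then 120 and 122 RPKM) was lower in all Dex samples. So were AXL (264 and 255 RPKM, then 212 and 226 RPKM) and VIM (1439 and 1464 RPKM, then 1409 and 1267 RPKM). ZEB1 and FN1 did neither. Of 9 epithelial or hormone receptor markers, which summed to 734 to 889 RPKM, the keratins KRT8, KRT18 and KRT19 were high (164 to 371 RPKM). ERBB2 stood at 15.9 to 21.6 RPKM, EPCAM at 8.02 to 10.6 RPKM and GATA3 at 3.75 to 6.60 RPKM. CDH1 stood at 0.226 to 0.465 RPKM, and ESR1 and PGR stayed at or below 0.00484 and 0.00253 RPKM. Of 7 adipocyte markers, 5 were in the files, and their summed level was 2.37 to 2.57 RPKM in vehicle, 2.56 to 2.72 at Dex 2 h, 3.79 to 4.21 at Dex 4 h, 2.47 to 3.14 after CpdA for 2 h and 2.21 to 2.45 after 4 h. On that list CFD stood at 2.02 to 2.91 RPKM, CIDEC reached 1.58 RPKM at Dex 4 h, LPL reached 0.137 RPKM, and the defining markers ADIPOQ and PLIN1 reached no more than 5.4e-09 and 0.0924 RPKM. In RNA from whole cultures, less RNA per cell and fewer expressing cells cannot be told apart. The study describes the replicates as biological and the labels only number them, so p-values speak only for the spread within groups of these samples. That spread was pooled over all 5 groups and moderated by an abundance trend over all genes kept. A sample outside a comparison therefore also affects its p-value.

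In vehicle the lipase PNPLA2 had the highest level of the 10 genes, 60.4 ± 1.46 RPKM (SD, n = 2). ACSL3 followed at 40.5 ± 2.13 RPKM and LPIN1 at 26.3 ± 2.91 RPKM. LPIN2 (18.2 ± 3.36 RPKM) and PLIN2 (17.7 ± 1.15 RPKM) were the only neighbours in this order whose samples overlapped. Below them stood ACSL1 at 13.5 ± 0.527 RPKM, DGAT1 at 11.6 ± 0.0379 RPKM and CPT1A at 8.25 ± 0.620 RPKM. ANGPTL4 (3.18 ± 0.668 RPKM) and DGAT2 (2.22 ± 0.144 RPKM) were the lowest. These last 2 also varied most over the 10 samples, with highest values 25.3 times the lowest for ANGPTL4 and 4.97 times for DGAT2. PLIN2 spanned 4.32 times and ACSL1 3.77 times, and the other 6 genes spanned 1.20 to 1.44 times.

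**Figure D1:**
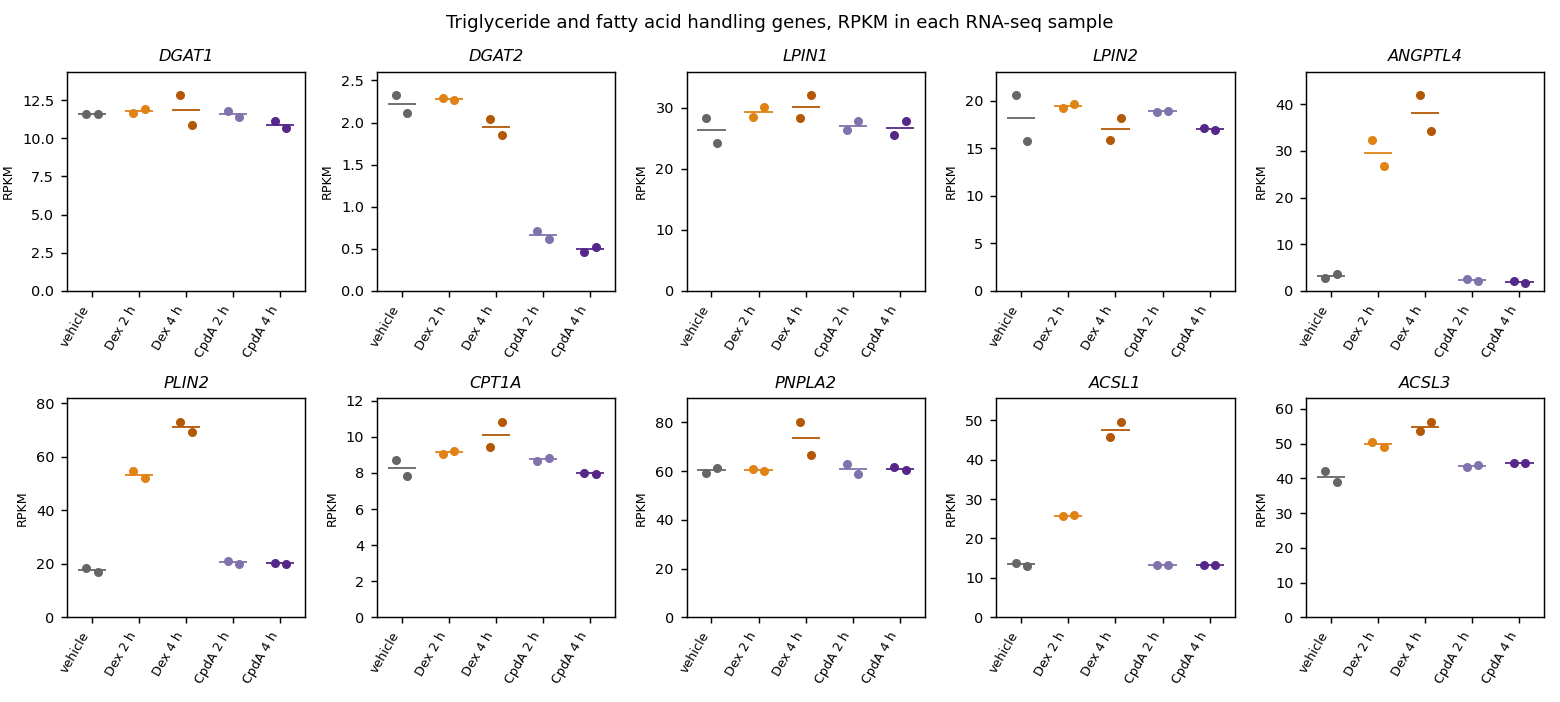
RPKM (y axis, linear from 0) of each of the 10 genes in each sample, by group on the x axis. Points are the 2 replicates and lines their mean. ANGPTL4, PLIN2 and ACSL1 were raised in all 4 Dex samples, and DGAT2 was lowered in all 4 CpdA samples.

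Dex raised ANGPTL4, PLIN2, ACSL1 and ACSL3 at both times. Against vehicle, 4 of the 10 genes rose and 0 fell after 2 h (limma, adjusted p under 0.05), where 10.3% of the 12713 genes tested were called, 4.49% higher and 5.82% lower. After 4 h, 6 rose and 0 fell, beside 27.4% of all genes tested, 9.26% higher and 18.2% lower. The median log2 fold change of the 10 was 0.15 at 2 h and 0.28 at 4 h, beside -0.02 and -0.05 over all genes tested. Past a fold change of 2 besides, the counts were 2 at 2 h and 3 at 4 h, beside 2.01% and 3.78% of all genes. At each time the samples of 7 of the 10 genes did not overlap those of vehicle, beside 51.5% of all genes at 2 h and 55.1% at 4 h.

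ANGPTL4 (chr19:8428173-8439254, plus strand, on GRCh37 as for every gene position here) changed most. It stood at 2.70 and 3.65 RPKM in vehicle, 32.2 and 26.8 RPKM at Dex 2 h, and 41.9 and 34.3 RPKM at Dex 4 h. Every Dex sample lay far above both vehicle samples. The log2 fold change, on the scale of log2(RPKM + 0.1) used throughout, was 3.18 ± 0.18 (SE) at 2 h, which is 9.09-fold (limma, adjusted p = 3.6e-06). At 4 h it was 3.55 ± 0.18, or 11.7-fold (limma, adjusted p = 8.1e-07).

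PLIN2 (chr9:19108373-19149288, minus strand), the droplet coat protein, stood at 18.5 and 16.9 RPKM in vehicle, 54.6 and 52.2 RPKM at Dex 2 h, and 73.1 and 69.3 RPKM at Dex 4 h. Each group stood clear of the one before it. The rise was 3.00-fold at 2 h (log2 fold change 1.59 ± 0.06, limma, adjusted p = 1.8e-07) and 4.00-fold at 4 h (2.00 ± 0.06, adjusted p = 2.8e-08).

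Both acyl-CoA synthetases rose, ACSL1 by more than ACSL3. ACSL1 (chr4:185676749-185747972, minus strand) stood at 13.9 and 13.1 RPKM in vehicle, 25.7 and 25.9 RPKM at Dex 2 h, and 45.6 and 49.6 RPKM at Dex 4 h. Its groups were ordered without overlap, with log2 fold changes of 0.93 ± 0.05 at 2 h (limma, adjusted p = 2.7e-06) and 1.81 ± 0.05 at 4 h (adjusted p = 2.5e-08), or 1.90-fold and 3.50-fold. ACSL3 (chr2:223725660-223809357, plus strand) stood at 42.0 and 39.0 RPKM in vehicle, 50.4 and 49.2 RPKM at Dex 2 h, and 53.6 and 56.3 RPKM at Dex 4 h. These samples did not overlap either, but the rise was only 1.23-fold at 2 h (log2 fold change 0.30 ± 0.05, limma, adjusted p = 0.0026) and 1.36-fold at 4 h (0.44 ± 0.05, adjusted p = 0.00011). An antisense gene, ACSL3-AS1, overlaps ACSL3 exons, and whether reads were counted by strand is not given in the sources used here.

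The 250 bases before the most upstream listed start of these 4 genes are shown because the genes rose at both times with Dex. They are RefSeq sequences on GRCh38.p14, written 5′ to 3′ along the gene at chr19:8363905-8364154 (plus), chr9:19127493-19127742 (minus), chr4:184825969-184826218 (minus) and chr2:222860786-222861035 (plus) in the order below, with matches to the motifs searched in capitals.
ANGPTL4: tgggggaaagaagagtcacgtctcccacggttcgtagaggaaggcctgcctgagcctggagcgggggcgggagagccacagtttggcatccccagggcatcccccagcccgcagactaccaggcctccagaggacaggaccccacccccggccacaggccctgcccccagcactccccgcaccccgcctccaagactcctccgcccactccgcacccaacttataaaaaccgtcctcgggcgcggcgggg
PLIN2: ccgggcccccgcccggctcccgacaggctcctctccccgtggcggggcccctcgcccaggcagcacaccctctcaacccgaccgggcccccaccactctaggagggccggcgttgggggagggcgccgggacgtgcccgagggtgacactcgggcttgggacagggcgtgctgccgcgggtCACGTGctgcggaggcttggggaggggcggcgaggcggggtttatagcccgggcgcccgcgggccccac
ACSL1: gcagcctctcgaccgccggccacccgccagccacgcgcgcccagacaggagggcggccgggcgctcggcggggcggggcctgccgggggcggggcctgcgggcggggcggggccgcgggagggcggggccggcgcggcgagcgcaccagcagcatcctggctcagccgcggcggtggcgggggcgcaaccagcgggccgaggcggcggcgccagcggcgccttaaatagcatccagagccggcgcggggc
ACSL3: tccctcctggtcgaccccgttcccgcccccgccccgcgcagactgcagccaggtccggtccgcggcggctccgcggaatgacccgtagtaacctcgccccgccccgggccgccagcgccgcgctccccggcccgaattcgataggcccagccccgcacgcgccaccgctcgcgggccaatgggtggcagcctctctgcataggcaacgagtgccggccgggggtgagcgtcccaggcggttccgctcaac

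The 4 stretches were rich in G and C, at 68.8% for ANGPTL4, 78.0% for PLIN2, 83.6% for ACSL1 and 75.2% for ACSL3, beside a median of 58.0% over all 35116 promoter windows. They held 16, 28, 41 and 35 CpG dinucleotides, beside a median of 11. Motifs were searched on both strands in 15 windows of the 8 genes with an entry. The capitals in PLIN2 mark an E-box, CACGTG, which starts at position -69 from the start site. Over all windows 6.34% hold one, and LPIN2 has one at -210. Neither the paired core of the glucocorticoid response element, ACANNNTGT, which 4.61% of all windows hold, nor the heat shock element (0.44%) occurs in these 15 windows. The single unit TGTTCT of that element (12.39% of all windows) occurs in another ACSL1 window, at -247 and -140, and AGGTCA, the unit of a nuclear receptor site (12.08%), occurs in a PNPLA2 window as its reverse complement. These windows cover only the stretch beside each start.

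CPT1A and PNPLA2 moved by less, and passed the test at 4 h but not at 2 h. CPT1A (chr11:68522088-68611878, minus strand), the mitochondrial gate, stood at 8.69 and 7.82 RPKM in vehicle, 9.03 and 9.23 RPKM at Dex 2 h, and 9.42 and 10.8 RPKM at Dex 4 h. All Dex samples lay above vehicle, with a log2 fold change of 0.15 at 2 h (95% interval -0.02 to 0.31, limma, adjusted p = 0.30) and of 0.29 at 4 h (0.12 to 0.46, adjusted p = 0.017). PNPLA2 (chr11:818914-825573, plus strand) stood at 59.3 and 61.4 RPKM in vehicle, 60.7 and 59.9 RPKM at Dex 2 h, and 80.2 and 66.6 RPKM at Dex 4 h. Only the 4 h samples stood above vehicle, and they differed from each other by more than vehicle did. The log2 fold change was -0.0015 at 2 h (-0.17 to 0.17, limma, adjusted p = 0.99) and 0.28 at 4 h (0.10 to 0.45, adjusted p = 0.025). Without Dex 4 h replicate 1 the PNPLA2 change was 0.14 (limma, adjusted p = 0.070), without vehicle replicate 1 it was 0.25 (adjusted p = 0.12), and without vehicle replicate 2 it was 0.30 (adjusted p = 0.065). The CPT1A change was 0.21 without vehicle replicate 2 (limma, adjusted p = 0.10) and 0.19 without Dex 4 h replicate 2 (adjusted p = 0.055).

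The 4 genes of the last steps of triglyceride synthesis did not pass the test with Dex at either time. DGAT1 (chr8:145538247-145550573, minus strand) stood at 11.6 and 11.6 RPKM in vehicle, 11.7 and 11.9 RPKM at Dex 2 h, and 12.8 and 10.9 RPKM at Dex 4 h, with a log2 fold change of 0.03 at both times (95% interval -0.13 to 0.19 at each). DGAT2 (chr11:75470557-75512580, plus strand) stood at 2.32 and 2.12 RPKM in vehicle, 2.29 and 2.26 RPKM at Dex 2 h, and 2.04 and 1.86 RPKM at Dex 4 h. It differed from vehicle by 0.04 on the log2 scale at 2 h (-0.22 to 0.29) and by -0.18 at 4 h (-0.43 to 0.08, limma, adjusted p = 0.28). DGAT1 exons overlap those of HSF1 on the other strand by 137 bases, so reads there cannot be assigned to one gene without strand.

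For the lipins, LPIN1 (chr2:11817721-11967535, plus strand) stood at 28.4 and 24.2 RPKM in vehicle, 28.4 and 30.1 RPKM at Dex 2 h, and 28.3 and 32.0 RPKM at Dex 4 h. The vehicle samples were far apart, and the log2 fold change was 0.16 at 2 h (95% interval -0.04 to 0.35, limma, adjusted p = 0.34) and 0.20 at 4 h (0.01 to 0.39, adjusted p = 0.12). LPIN2 (chr18:2885294-3013142, minus strand) stood at 20.6 and 15.8 RPKM in vehicle, 19.2 and 19.6 RPKM at Dex 2 h, and 15.9 and 18.2 RPKM at Dex 4 h. Its Dex samples lay between the vehicle samples, with log2 fold changes of 0.11 (-0.14 to 0.35) and -0.08 (-0.33 to 0.16). These values rested on single vehicle samples. The LPIN2 change was 0.29 at 2 h without vehicle replicate 1 (limma, adjusted p = 0.045) and -0.27 at 4 h without vehicle replicate 2 (adjusted p = 0.037). LPIN1 at 4 h was 0.31 without vehicle replicate 1 (limma, adjusted p = 0.038).

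CpdA lowered DGAT2, 1 of the 2 enzymes of the final step of triglyceride synthesis, which did not pass the test with Dex. DGAT1, the other, did not pass with CpdA at either time. Against vehicle, 1 of the 10 genes was called after 2 h, DGAT2, which fell, beside 6.18% of all genes tested, 1.89% higher and 4.29% lower. After 4 h, 3 were called, DGAT2 and ANGPTL4 lower and PLIN2 higher, beside 20.5% of all genes, 6.76% higher and 13.8% lower. The median log2 fold change of the 10 was 0.03 at 2 h and -0.03 at 4 h, beside -0.02 and -0.04 over all genes. The samples of 4 genes at 2 h and 5 at 4 h did not overlap vehicle, beside 54.5% and 64.7% of all genes.

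DGAT2 stood at 0.711 and 0.618 RPKM at CpdA 2 h and 0.467 and 0.527 RPKM at CpdA 4 h, beside the 2.32 and 2.12 RPKM of vehicle. All 4 CpdA samples lay below every vehicle and Dex sample. Its level was 3.04-fold lower at 2 h (log2 fold change -1.60 ± 0.11, limma, adjusted p = 9.8e-05) and 3.89-fold lower at 4 h (-1.96 ± 0.11, adjusted p = 1.4e-05). Past a fold change of 2 it was the only member at either time, beside 0.488% and 0.889% of all genes. Other genes overlap DGAT2 exons on the opposite strand, DGAT2-DT by 117 bases and an unnamed gene by 423 bases.

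ANGPTL4 stood at 2.48 and 2.04 RPKM at CpdA 2 h and 2.14 and 1.66 RPKM at CpdA 4 h. All 4 lay below vehicle, with a log2 fold change of -0.46 at 2 h (95% interval -0.86 to -0.06, limma, adjusted p = 0.18) and -0.71 at 4 h (-1.11 to -0.31, adjusted p = 0.022). The 4 h call was lost without vehicle replicate 2 (-0.50, limma, adjusted p = 0.12) and without CpdA 4 h replicate 2 (-0.53, adjusted p = 0.15). PLIN2 stood at 21.2 and 20.0 RPKM at CpdA 2 h and 20.5 and 20.1 RPKM at CpdA 4 h, a little above vehicle in all 4 samples. Its log2 fold change was 0.22 at 2 h (0.09 to 0.34, limma, adjusted p = 0.055) and 0.20 at 4 h (0.07 to 0.32, adjusted p = 0.038), and the 4 h call was lost without vehicle replicate 2 (0.13, adjusted p = 0.18), without either CpdA 4 h sample (0.18 and 0.21, adjusted p = 0.19 and 0.13), and without any one Dex 2 h or CpdA 2 h sample (0.20, adjusted p = 0.057 and 0.054). At CpdA 2 h PLIN2 passed instead without vehicle replicate 1 (0.28, limma, adjusted p = 0.025) and without either Dex 4 h sample (0.22, adjusted p = 0.035).

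The other 7 genes did not pass the test with CpdA. ACSL1, which rose with Dex, stood at 13.2 RPKM in both CpdA 2 h samples and 13.3 RPKM in both CpdA 4 h samples, within the vehicle range. Its log2 fold change was -0.03 at 2 h (95% interval -0.14 to 0.08) and -0.02 at 4 h (-0.13 to 0.09). ACSL3 stood at 43.2 and 43.8 RPKM at 2 h and 44.6 and 44.5 RPKM at 4 h, just above vehicle, with a log2 fold change of 0.14 at 4 h (0.03 to 0.24, limma, adjusted p = 0.064). This ACSL3 value passed without vehicle replicate 1 (0.19, limma, adjusted p = 0.032) or either Dex 4 h sample (0.14, adjusted p = 0.035). For LPIN2 at CpdA 4 h (17.1 and 16.9 RPKM) the change was -0.08, and -0.27 without vehicle replicate 2 (limma, adjusted p = 0.047). DGAT1, LPIN1, CPT1A and PNPLA2 had log2 fold changes between -0.09 and 0.09 at both times.

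Dex and CpdA were then compared directly at each time, which leaves vehicle out of the contrast; the 2 ligands were given at different concentrations. At 2 h, 5 of the 10 genes were higher with Dex and 0 lower, beside 13.7% of all genes called, 7.53% higher and 6.18% lower. At 4 h 7 were higher and 0 lower, beside 33.4% called, 15.4% higher and 18.0% lower. The samples of 8 genes did not overlap between ligands at each time, beside 58.8% of all genes at 2 h and 63.5% at 4 h. ANGPTL4 was 12.5-fold higher with Dex at 2 h (log2 difference 3.65 ± 0.18, limma, adjusted p = 1.2e-06) and 19.1-fold higher at 4 h (4.26 ± 0.18, adjusted p = 2.3e-07). PLIN2 was 2.58-fold and 3.50-fold higher (log2 differences 1.37 and 1.81, limma, adjusted p = 3.8e-07 and 3.9e-08).

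DGAT2 was 3.11-fold higher with Dex than with CpdA at 2 h (log2 difference 1.64 ± 0.11, limma, adjusted p = 1.1e-05) and 3.44-fold at 4 h (1.78 ± 0.11, adjusted p = 3.2e-06). ACSL1 was 1.95-fold and 3.55-fold higher (0.96 and 1.83, limma, adjusted p = 1.9e-06 and 1.8e-08). ACSL3 differed by 0.19 at 2 h (limma, adjusted p = 0.021) and 0.30 at 4 h (adjusted p = 0.00089). The ACSL3 difference at 2 h was no longer called when any one of its 4 samples was left out, with values from 0.18 to 0.21 (limma, adjusted p = 0.077 to 0.15).

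At 4 h the ligands also differed for CPT1A (0.34 ± 0.07, limma, adjusted p = 0.0069) and PNPLA2 (0.26 ± 0.08, adjusted p = 0.027). The PNPLA2 call was lost without Dex 4 h replicate 1 (0.13, limma, adjusted p = 0.082), CpdA 4 h replicate 1 (0.28, adjusted p = 0.090) or CpdA 4 h replicate 2 (0.25, adjusted p = 0.13). DGAT1, LPIN1 and LPIN2 did not pass at either time, with 95% intervals at 4 h of -0.04 to 0.28, -0.02 to 0.37 and -0.24 to 0.24. DGAT1 at 4 h was 0.23 without Dex 4 h replicate 2 (limma, adjusted p = 0.0074).

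**Figure D2:**
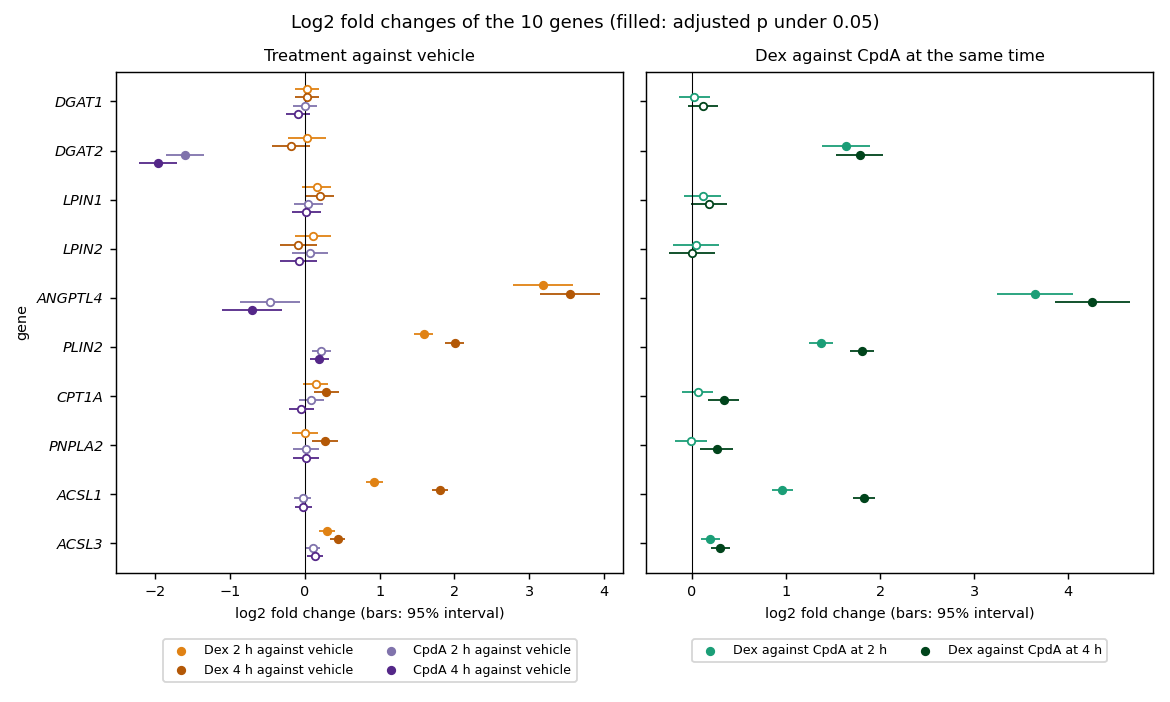
Log2 fold change (x axis) of each of the 10 genes (y axis) for each treatment against vehicle (left) and for Dex against CpdA at the same time (right). Bars are 95% intervals and filled points passed an adjusted p of 0.05. ANGPTL4, PLIN2 and ACSL1 stand to the right with Dex, and DGAT2 to the left with CpdA at -1.60 and -1.96.

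Between 2 h and 4 h of Dex, 3 of the 10 genes rose further and 0 fell, beside 13.6% of all genes called, 4.55% higher and 9.02% lower. ACSL1 gained 0.88 ± 0.05 on the log2 scale (1.84-fold, limma, adjusted p = 4e-05) and PLIN2 0.41 ± 0.06 (1.33-fold, adjusted p = 0.0018). PNPLA2 gained 0.28 ± 0.08 (limma, adjusted p = 0.044), a call that was lost when any sample but Dex 4 h replicate 2 was left out, with values of 0.14 to 0.29 (adjusted p = 0.055 to 0.18). ANGPTL4, which was already 9.09-fold up at 2 h, had a log2 difference of 0.37 between 2 h and 4 h (95% interval -0.04 to 0.77, limma, adjusted p = 0.21). For ACSL3 the difference was 0.14 (limma, adjusted p = 0.075), which passed without either vehicle sample (adjusted p = 0.044).

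Between 2 h and 4 h of CpdA, limma called 0 of the 10 genes, beside 12.4% of all genes. At an unadjusted p under 0.05 there was 1, beside 28.2% of all genes. This was DGAT2, with a log2 difference of -0.36 (95% interval -0.61 to -0.10, limma, adjusted p = 0.073). The change from 2 h to 4 h differed between the ligands for 2 genes, beside 6.60% of all genes, 3.04% being larger with Dex. It was larger with Dex by 0.87 ± 0.07 for ACSL1 (limma, adjusted p = 0.00049) and by 0.44 ± 0.08 for PLIN2 (adjusted p = 0.014). The PLIN2 call was lost without Dex 2 h replicate 2 (0.41, limma, adjusted p = 0.067), CpdA 2 h replicate 1 (0.39, adjusted p = 0.074), CpdA 4 h replicate 1 (0.45, adjusted p = 0.057) or CpdA 4 h replicate 2 (0.42, adjusted p = 0.070). CPT1A passed at 0.37 without Dex 4 h replicate 1 (limma, adjusted p = 0.042) and PNPLA2 at 0.41 without Dex 4 h replicate 2 (adjusted p = 0.0056).

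To set the 10 genes in their pathway, 134 other lipid genes were listed by role, of which 129 were in the files and 99 passed the filter. With Dex 8 rose and 2 fell at 2 h (10.1%, beside 10.3% of all genes), and 14 rose and 12 fell at 4 h (26.3%, beside 27.4%). Those that rose include CIDEC at both times, which passed the filter through its Dex 4 h samples alone. With CpdA 2 rose and 6 fell at 2 h (8.08%, beside 6.18%), and 8 rose and 15 fell at 4 h (23.2%, beside 20.5%). These shares lay near the background. With each sample centred on its median, 16 rose and 8 fell at Dex 4 h. After CpdA 3 then rose and 5 fell at 2 h, and 11 rose and 7 fell at 4 h. Over all genes, 3204, 662 and 2484 were then called in these comparisons, beside 3487, 786 and 2609 in the main fit. With quantile normalization 16 rose and 9 fell at Dex 4 h, where 3182 of all genes were called. The CpdA counts also moved when single samples were left out, as did the calls over all genes. The median log2 fold change of the 99 was 0.01, -0.0056, 0.03 and -0.05 in that order, beside -0.02, -0.05, -0.02 and -0.04 over all genes.

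Glycerolipid synthesis, the list nearest to DGAT2 and the lipins, had 10 tested genes. With Dex 0 were called at 2 h and 1 rose at 4 h, while with CpdA 3 fell at 2 h and 4 fell and 1 rose at 4 h. At Dex 2 h, Dex 4 h, CpdA 2 h and CpdA 4 h these were 0%, 10%, 30% and 50% of the list. Of all genes, 10.3%, 27.4%, 6.18% and 20.5% were called in the same order. The median of that list at CpdA 4 h was -0.21, beside -0.04 over all genes. GPAM, which adds the first fatty acid to glycerol phosphate, was named after its values were seen, with log2 fold changes of -0.97 at CpdA 2 h (limma, adjusted p = 0.00057) and -0.66 at CpdA 4 h (adjusted p = 0.0014), and of -0.09 and -0.18 with Dex. AGPAT9, another glycerol phosphate acyltransferase named after its values were seen, went the other way, from 20.0 and 23.3 RPKM in vehicle to 41.1 and 39.8 RPKM at CpdA 4 h (log2 fold change 0.90, limma, adjusted p = 0.00016), and had a log2 fold change of 0.08 at CpdA 2 h (adjusted p = 0.65). Fatty acid activation and uptake had 12 tested genes. With Dex 1 rose at 2 h, and 1 rose and 2 fell at 4 h. With CpdA 1 fell at 2 h and 3 fell at 4 h. These were 8.33%, 25%, 8.33% and 25% of the list in the same order. The medians of that list lay between -0.08 and 0.05 in the 4 treatments.

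Fatty acid oxidation, the list nearest to CPT1A, had 26 tested genes. With Dex 1 rose at 2 h, and 2 rose and 1 fell at 4 h. With CpdA 0 were called at 2 h, and 1 rose and 1 fell at 4 h. These were 3.85%, 11.5%, 0% and 7.69% of the list, beside 10.3%, 27.4%, 6.18% and 20.5% of all genes. SLC22A5, a carnitine transporter also named after its values were seen, changed by 0.65 at Dex 2 h (limma, adjusted p = 3.3e-05) and 0.84 at Dex 4 h (adjusted p = 2.7e-06). Of 17 genes of fatty acid synthesis and desaturation, 0 were called at 2 h with either ligand. At 4 h 2 rose and 3 fell with Dex, and 2 rose and 1 fell with CpdA. In the same order of treatments these were 0%, 29.4%, 0% and 17.6% of the list. Of 8 lipid droplet proteins, 1 rose at Dex 2 h, and 2 rose and 1 fell at Dex 4 h. With CpdA 1 fell at 2 h, and 1 rose and 3 fell at 4 h. These were 12.5%, 37.5%, 12.5% and 50% of the list. The gene that rose at Dex 2 h was CIDEC, which also rose at Dex 4 h. It passed the filter on low values through its Dex 4 h samples alone, so its place in these counts is not independent of that choice. Of 11 lipases and their regulators, 0 rose in any treatment. With Dex 2 fell at 2 h and 2 at 4 h, and with CpdA 1 and 2 fell. These were 18.2%, 18.2%, 9.09% and 18.2% of the list. Of 15 regulators, 5 rose at Dex 2 h, and 6 rose and 3 fell at Dex 4 h. With CpdA 2 rose at 2 h, and 3 rose and 1 fell at 4 h. These were 33.3%, 60%, 13.3% and 26.7% of the list. The lists are small and were chosen with earlier results of these data known, so these shares are a description.

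**Figure D3:**
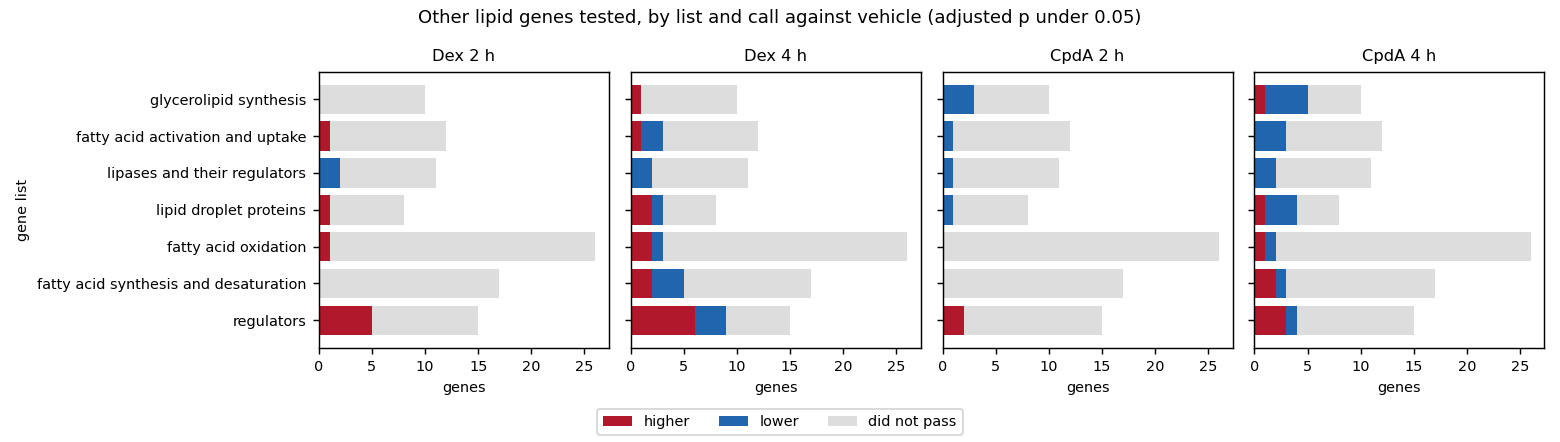
Number of tested genes (x axis) in each of 7 lists of other lipid genes (y axis) that were higher, lower or did not pass against vehicle, in each treatment. Of 15 regulators, 6 were higher and 3 lower at Dex 4 h (60%, beside 27.4% of all genes). Of 10 glycerolipid synthesis genes, 4 were lower and 1 higher at CpdA 4 h (50%, beside 20.5%).

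Of the 99 other lipid genes tested, 7 were called with at least 1 change of over 2-fold over the 4 treatments. Among them was CIDEC, which passed the filter through its Dex 4 h samples alone. Past 2-fold, 4 rose and 0 fell at Dex 2 h, and 4 rose and 2 fell at Dex 4 h. With CpdA 1 rose and 0 fell at 2 h, and 0 rose and 1 fell at 4 h. Of all genes, 2.01%, 3.78%, 0.488% and 0.889% were called past 2-fold in the same order. G0S2, an inhibitor of the PNPLA2 lipase, stood at 89.0 and 93.4 RPKM in vehicle, 45.5 and 48.2 RPKM at Dex 2 h, 26.3 and 27.5 RPKM at Dex 4 h, 64.6 and 67.7 RPKM at CpdA 2 h, and 66.4 and 66.7 RPKM at CpdA 4 h. It fell in every treatment, most with Dex at 4 h. Its log2 fold changes were -0.96 and -1.76 with Dex (limma, adjusted p = 1.5e-06 and 2.1e-08) and -0.46 and -0.45 with CpdA (adjusted p = 0.00076 and 0.00028). LIPG, endothelial lipase, stood at 11.9 and 10.8 RPKM in vehicle, 7.91 and 8.29 RPKM at Dex 2 h, 4.34 and 4.82 RPKM at Dex 4 h, and from 11.0 to 12.7 RPKM in the CpdA samples. It fell by 0.48 at 2 h and 1.29 at 4 h of Dex on the log2 scale (limma, adjusted p = 0.0028 and 2.3e-06) and did not pass the test with CpdA.

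Among droplet proteins, CIDEC, which promotes droplet fusion, stood at 0.0425 and 0.0140 RPKM in vehicle, 0.287 and 0.316 RPKM at Dex 2 h, 1.52 and 1.58 RPKM at Dex 4 h, and at no more than 0.0732 RPKM with CpdA. It passed the filter through the Dex 4 h samples alone and rested on as little as 1 implied read, so its log2 fold change at Dex 4 h was 3.69 with the pseudocount of 0.1 but 1.31 with 1 and 5.45 with 0.01. CIDEC is itself on the adipocyte marker list and made up the higher sum of that list at Dex 4 h, where CFD, PLIN1 and LPL stood at no more than 2.59, 0.0498 and 0.124 RPKM, beside 2.37, 0.0714 and 0.123 RPKM at most in vehicle. FITM2, which helps droplets form, stood at 7.74 and 7.88 RPKM in vehicle, 6.41 and 6.93 RPKM at Dex 2 h, 6.18 and 7.28 RPKM at Dex 4 h, 4.26 and 4.03 RPKM at CpdA 2 h, and 3.77 and 3.49 RPKM at CpdA 4 h. All CpdA samples lay below all others, and FITM2 fell by 0.90 and 1.09 on the log2 scale with CpdA (limma, adjusted p = 0.00049 and 7.4e-05). With Dex its log2 differences from vehicle were -0.23 and -0.22, which passed without Dex 4 h replicate 1 at 2 h (limma, adjusted p = 0.049) and without Dex 4 h replicate 2 at 4 h (-0.33, adjusted p = 0.011).

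The other 3 encode transcription factors of fat cell development and metabolism. CEBPB stood at 25.5 and 26.9 RPKM in vehicle, 245 and 220 RPKM at Dex 2 h, 207 and 198 RPKM at Dex 4 h, 38.3 and 38.1 RPKM at CpdA 2 h, and 34.9 and 38.4 RPKM at CpdA 4 h, with log2 fold changes of 3.14, 2.94, 0.54 and 0.48. All 4 passed (limma, adjusted p = 0.0014 or less). Exons of CEBPB overlap those of CEBPB-AS1 by 231 bases. CEBPD stood at 12.5 and 9.40 RPKM in vehicle, 48.8 and 43.3 RPKM at Dex 2 h, 37.9 and 35.0 RPKM at Dex 4 h, 25.0 and 21.9 RPKM at CpdA 2 h, and 15.2 and 15.4 RPKM at CpdA 4 h. Its log2 fold changes were 2.08, 1.74, 1.10 and 0.49, all past the test, the last of which was lost without vehicle replicate 2 (0.29, limma, adjusted p = 0.083) or either CpdA 4 h sample (0.50 and 0.49, adjusted p = 0.097 and 0.10). KLF15 stood at 1.75 and 1.34 RPKM in vehicle, 11.4 and 12.3 RPKM at Dex 2 h, 12.6 and 13.0 RPKM at Dex 4 h, and from 1.59 to 1.79 RPKM with CpdA. It rose by 2.87 and 2.98 on the log2 scale with Dex (limma, adjusted p = 2.3e-07 and 1.1e-07). With CpdA its log2 differences were 0.21 at 2 h and 0.06 at 4 h, the former passing without vehicle replicate 1 (0.39, limma, adjusted p = 0.019). PPARG, the regulator of fat cell formation, was named after its values were seen, with log2 fold changes of 0.42 and 0.98 with Dex (limma, adjusted p = 0.00057 and 9.3e-07) and 0.03 and 0.05 with CpdA.

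**Figure D4:**
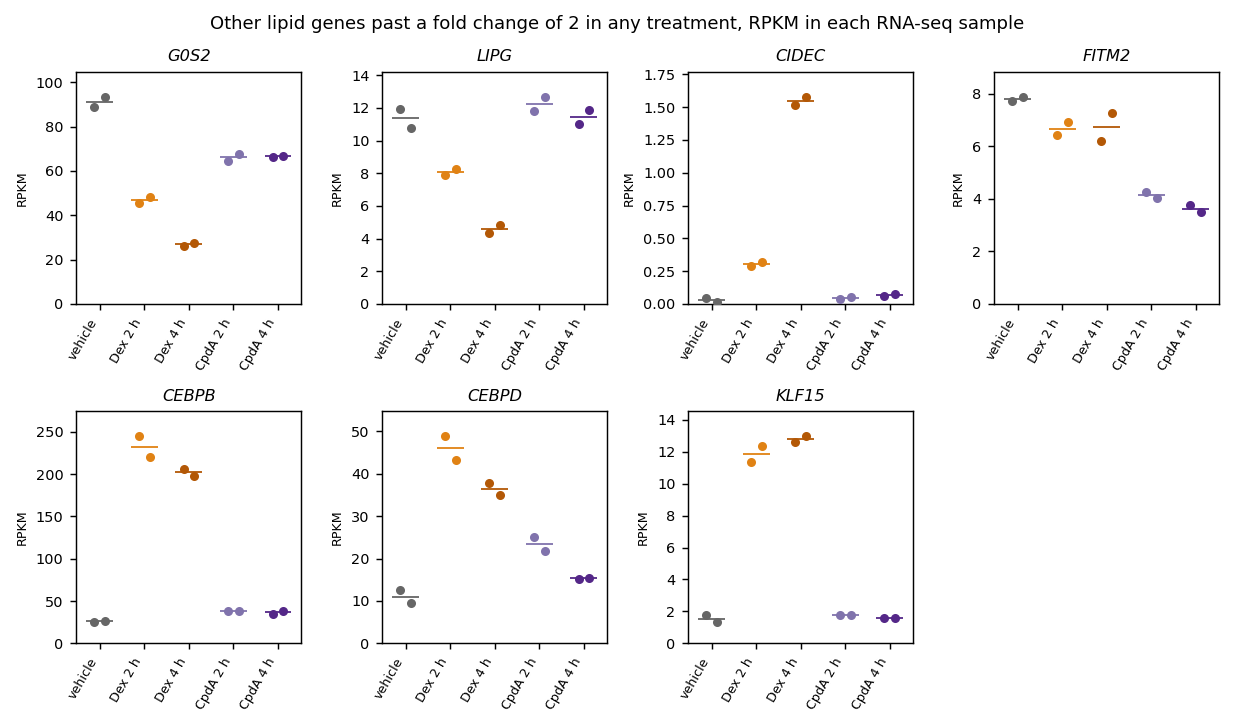
RPKM (y axis, linear from 0) of the 7 other lipid genes called with a change of over 2-fold, in each sample, by group on the x axis. Points are the 2 replicates and lines their mean. G0S2 and LIPG step down and CIDEC steps up from vehicle to Dex 2 h to Dex 4 h, while FITM2 is lowest in the CpdA samples.

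The genes with the pattern most like ANGPTL4 and DGAT2, the members with the largest log2 fold change against vehicle in a Dex and in a CpdA treatment, were sought by Pearson correlation of log2 values over the 10 samples, as a description; the points share their libraries and groups. Of 12712 other genes, SMIM3, PLAT and ZFP36L2 were closest to ANGPTL4, each with r = 0.994. SMIM3 stood at 5.66 ± 0.686 RPKM in vehicle, 91.6 ± 7.28 RPKM at Dex 4 h and 4.66 ± 0.310 RPKM at CpdA 4 h (SD, n = 2). PLAT (tissue plasminogen activator) stood at 165, 282 and 138 RPKM in these groups, and ZFP36L2 at 17.6, 79.0 and 13.5 RPKM. Closest to DGAT2 were CERK (r = 0.986), VAPB (r = 0.986) and RBM22 (r = 0.985). CERK (ceramide kinase) stood at 13.4 ± 0.444 RPKM in vehicle, 11.5 ± 0.0385 RPKM at Dex 4 h and 7.38 ± 0.0603 RPKM at CpdA 4 h. VAPB stood at 9.72, 9.11 and 7.40 RPKM and RBM22 at 19.7, 19.6 and 17.1 RPKM, so that their changes were much smaller than the change of DGAT2.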

How the data were processed

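RNA-seq of 10 MDA-MB-231 samples was analysed. The authors aligned single-end 50-bp reads with TopHat2 2.0.13 and estimated transcript abundances in Partek 6.6. The labels also name Bowtie and the hg19 build, without a role. The deposited values are RPKM for 20668 gene symbols per sample. How transcripts were combined into symbols and whether strand was used are not given in the sources used here.

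The filter kept 12713 genes that reached 0.5 RPKM in 2 samples or more, and log2(RPKM + 0.1) was fitted over the 5 groups with limma 3.58.1 in R 4.3.3 (eBayes with an abundance trend, Benjamini-Hochberg adjustment over all genes kept). A gene was called at an adjusted p under 0.05. A pseudocount understates fold changes of low genes. The code of the fit was checked on simulated data with large changes added to some genes. That check does not bear on the smaller changes called here. The 4 comparisons with vehicle share its 2 samples. Named lipid genes were those of the lists with a call and a fold change over 2 in any treatment. The 10 genes and all lists were chosen with earlier results of these data known. Alternatives were other pseudocounts, filters, scalings, variance models, sample sets, a replicate block and each replicate left out. Read totals came from the RPKM step of small RNA genes of known length (86 to 101 of 320 to 380 genes per sample gave the same total). Gene positions are from GENCODE on GRCh37. Sequences are from RefSeq, and 8 of the 10 genes had an entry. Replicates shared 0 to 1 identical values above 0, so none was counted as a duplicate. Python 3.11.15, numpy 2.4.6, pandas 2.3.3 and matplotlib 3.10.9 were used.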

Additional observations from a re-analysis of the deposited data

Results flagged for a closer look

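Some named genes differed between 2 h and 4 h of the same ligand by the limma test (adjusted p under 0.05). With Dex the change was 0.88 for ACSL1, 0.41 for PLIN2, 0.28 for PNPLA2, 2.04 for CIDEC, -0.80 for G0S2 and -0.81 for LIPG on the log2 scale. With CpdA it was -0.61 for CEBPD, which was highest at 2 h. The PNPLA2 call was lost in 13 of 20 alternatives. CIDEC was tested only because it passed the filter through its Dex 4 h samples, so its value is a description.

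The change over time differed between Dex and CpdA, by a test of the difference itself, by 0.87 for ACSL1, 0.44 for PLIN2, 1.81 for CIDEC, -0.81 for G0S2 and -0.71 for LIPG. The vehicle samples enter neither contrast. CIDEC passed the filter on low values through its Dex 4 h samples alone and rested on as little as 1 implied read, so its values here are a description and not independent of that choice.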

How the results depend on the processing

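The rises of ANGPTL4, PLIN2, ACSL1 and ACSL3 with Dex at both times held their direction and their call under all 20 alternatives run, and the fall of DGAT2 with CpdA under all 19 that could test it, since DGAT2 was dropped by a filter of RPKM of at least 1 in every sample. The log2 fold change of DGAT2 ranged from -1.73 to -0.95 at CpdA 2 h and from -2.14 to -1.10 at CpdA 4 h, smallest with a pseudocount of 1. With 2 replicates per group, smaller changes depended on the variance model. PNPLA2 at Dex 4 h was not called without the filter (limma, adjusted p = 0.071), without moderation (0.099), without the trend (0.052) or with only the groups compared (0.10), CPT1A at Dex 4 h not without moderation (0.061) or with only the groups compared (0.11), and ANGPTL4 at CpdA 4 h not without the filter (0.077) or moderation (0.11). PLIN2 at CpdA 4 h lost its call in 11 of 20 alternatives.

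Counts of the 10 genes called moved to 2 at CpdA 2 h with quantile normalization, with median centring and with a replicate block, to 1 at CpdA 4 h without the filter or without moderation, to 1 without the trend and 2 with only the groups compared for CpdA 4 h against 2 h, and to 1 without moderation for the difference over time. Of the other lipid genes, 8 rose and 6 fell at Dex 4 h with only the groups compared, 5 rose at CpdA 4 h without the filter or without moderation, and 7 fell at CpdA 4 h with median centring. With each replicate left out, the 10 genes gave 1 to 2 calls at CpdA 2 h, 1 to 4 at CpdA 4 h, 0 for CpdA 4 h against 2 h and 1 to 3 for the difference over time. The other lipid genes then gave 10 to 18 higher and 10 to 18 lower at Dex 4 h, 2 to 6 higher and 3 to 12 lower at CpdA 2 h, and 4 to 9 higher and 7 to 19 lower at CpdA 4 h. The calls over all genes also moved in these comparisons when single samples were left out. Such shifts alone therefore do not set the lipid genes apart from other genes. The cause was not tested. Over all genes, the calls against vehicle at Dex 2 h, Dex 4 h, CpdA 2 h and CpdA 4 h were 1311, 3487, 786 and 2609. With only the groups compared they became 1775 at Dex 4 h and 480 at CpdA 2 h. CpdA 2 h had 368 without moderation, 741 with quantile normalization, 662 with median centring and 918 with a replicate block. CpdA 4 h had 2484 with median centring, 1998 without moderation and 2266 of 20668 genes without the filter. For CpdA 4 h against 2 h, 1577 calls became 1281 without the trend and 3500 with only the groups compared. For the difference over time, 839 became 423 without moderation.

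Deviations from the group means of same-numbered samples correlated by -0.0568 to 0.198, over 0.1 in 3 of 10 pairs of groups, and the main fit did not pair samples. The 2 vehicle samples also differ in the time their headers name. Whether some groups shared a batch was not tested. The replicate block changed 1 call of the 10 genes, PLIN2 at CpdA 2 h, which then passed (limma, adjusted p = 0.014).

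Values that had not passed the test, all but CIDEC near 0, changed sign under some alternatives without passing it there. CIDEC at CpdA 4 h stood at 0.39 in the main fit and rested on 3 and 1 implied reads in vehicle. With quantile normalization the log2 values became 0.0095 for PNPLA2 (Dex 2 h against vehicle), 0.017 for CPT1A, 0.018 for ACSL1, -0.26 for CIDEC and 0.041 for SLC22A5 (CpdA 4 h against vehicle), 0 for PNPLA2 (Dex against CpdA at 2 h), 0.018 for DGAT1 (Dex 4 h against 2 h) and -0.0092 for PNPLA2 (CpdA 4 h against 2 h). With median centring the log2 values became 0.014 for PNPLA2 (Dex 2 h against vehicle), 0.0037 for ACSL1 (CpdA 2 h against vehicle), 0.019 for CPT1A, 0.045 for ACSL1 and 0.026 for SLC22A5 (CpdA 4 h against vehicle), 0.0027 for LPIN2 (Dex against CpdA at 4 h), 0.054 for DGAT1 (Dex 4 h against 2 h), and 0.0080 for LPIN1 and 0.0089 for PLIN2 (CpdA 4 h against 2 h). With a pseudocount of 1 the log2 values became 0.0001 for DGAT1 (Dex 4 h against 2 h). 

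With each replicate left out in turn, the log2 fold changes that changed sign ranged as follows. Of these, LPIN2 alone passed the test on leaving out 1 vehicle sample. For Dex 2 h against vehicle they ran from -0.028 to 0.099 for DGAT2, from -0.083 to 0.29 for LPIN2 and from -0.026 to 0.023 for PNPLA2. For Dex 4 h against vehicle they ran from -0.27 to 0.10 for LPIN2 and from -0.089 to 0.14 for DGAT1. For CpdA 2 h against vehicle they ran from -0.024 to 0.028 for DGAT1, from -0.037 to 0.062 for PNPLA2, from -0.070 to 0.0092 for ACSL1, from -0.068 to 0.16 for LPIN1 and from -0.12 to 0.26 for LPIN2. For CpdA 4 h against vehicle they ran from -0.27 to 0.11 for LPIN2, from -0.12 to 0.030 for CPT1A, from -0.010 to 0.039 for PNPLA2, from -0.060 to 0.019 for ACSL1, from -0.091 to 0.13 for LPIN1, from -0.062 to 0.082 for LIPG and from -0.12 to 0.23 for KLF15. For Dex against CpdA at 2 h they ran from -0.063 to 0.036 for PNPLA2 and from -0.0007 to 0.051 for DGAT1. For Dex against CpdA at 4 h they ran from -0.10 to 0.096 for LPIN2. For Dex 4 h against 2 h they ran from -0.046 to 0.13 for LPIN1 and from -0.12 to 0.12 for DGAT1. For CpdA 4 h against 2 h they ran from -0.066 to 0.021 for PLIN2, from -0.085 to 0.039 for LPIN1 and from -0.047 to 0.052 for PNPLA2. For the difference over time between Dex and CpdA they ran from -0.025 to 0.21 for DGAT1, from -0.14 to 0.057 for LPIN2 and from -0.022 to 0.15 for LPIN1.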
